A study of Mus musculus with 16 samples.

Results

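The AKT and mTORC1 axis was followed through 9 genes in *gastrocnemius* muscle of 16 mice: the kinases *Akt1* and *Akt2*, the AKT-binding protein gene *Plekho1*, the mTORC1 genes *Mtor*, *Rptor* and *Deptor*, the upstream brakes *Tsc1* and *Tsc2*, and the assembly factor gene *Telo2*. The genes were taken by name from the counts of 24454 genes, and all 9 passed the filter on low counts that left 15487 genes for testing. *Plekho1* and *Telo2* were chosen by their levels in these same samples, so their values are given as a description with no test. The other 7 were listed by role, though also with earlier results of these data known. RNA-seq had been done at 3 months of age with a library for each mouse. HSALR mice carry a human skeletal actin transgene with long CTG repeats, are homozygous for the LR20b line, express the repeat in skeletal muscle alone, and are of the FVB/N background. They model the muscle part of myotonic dystrophy type I from 1 transgenic line and leave its other tissues aside. Control mice were FVB/N without the transgene. Vehicle was given to 3 control and 5 HSALR mice, and AICAR, an activator of AMP-activated protein kinase, to another 3 control and 5 HSALR mice at 500 mg/kg over 7 days. The HSALR groups are thus larger than the control groups, and each p-value judges a difference between groups against the variation between these mice.

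AKT is a kinase activated downstream of insulin and growth factor receptors through phosphoinositide 3-kinase. Among its targets, the TSC1-TSC2 complex holds back the small GTPase RHEB, which activates mTORC1, the complex of the kinase mTOR with raptor that promotes protein synthesis and restrains autophagy in muscle. AMP-activated protein kinase acts in the opposite direction on this axis by phosphorylating TSC2 and raptor, so mTORC1 is set mainly by phosphorylation and by amino acids, which transcript counts do not measure.

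Levels are given as normalized CPM, which is the count of a gene relative to its TMM-scaled library total. Library totals ranged from 64890014 to 81987726 counts. Genes of skeletal muscle fibres dominated every library. The libraries also differed in traces of skin: *Krt14*, a keratin of the epidermis, was between 2.98 and 32.2 normalized CPM in 6 libraries (1 of 3 vehicle-treated controls, 4 of 5 vehicle-treated HSALR mice, 1 of 3 AICAR-treated controls and 0 of 5 AICAR-treated HSALR mice) and at most 0.0835 in the others. All 5 endothelial markers examined were lower in HSALR than in control muscle after vehicle, with summed levels of 183 to 232 against 273 to 313 normalized CPM.

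*Plekho1* encodes CKIP-1, a pleckstrin homology domain protein that binds AKT and casein kinase 2 and is known to reduce AKT activity (chromosome 3, 95988809 to 95999355, GRCm38.p6). Its level in vehicle-treated control muscle was 8.51 in mouse S445, 9.54 in S446 and 9.39 in S450. In vehicle-treated HSALR muscle it was 60.0 in S451, 57.5 in S452, 54.7 in S453, 56.3 in S458 and 61.8 in S459. Every HSALR mouse therefore lay far above every control, 6.35-fold on average, with a log2 fold change of 2.67 ± 0.11 (SE). After AICAR the level was 15.6, 13.5 and 13.9 in control mice S447, S448 and S449, all above the vehicle-treated controls by 0.65 ± 0.11 on the log2 scale. In the AICAR-treated HSALR mice it was 70.5 in S454, 63.7 in S455, 73.6 in S460, 51.3 in S462 and 65.6 in S463. These values overlapped those of vehicle-treated HSALR mice, and the log2 fold change between them was 0.16 ± 0.08. The level was thus lowest in vehicle-treated controls (9.15 ± 0.56, SD, n = 3), followed by AICAR-treated controls (14.3 ± 1.13, n = 3), and highest in the HSALR groups, whose means of 58.1 ± 2.84 and 65.0 ± 8.57 (n = 5 each) were within the spread between mice. HSALR and control mice differed by 2.18 ± 0.10 on the log2 scale after AICAR, 0.49 ± 0.13 less than after vehicle.

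Set against gene length, *Plekho1* moved from among the weakest of the 9 genes to the second strongest. In vehicle-treated controls it reached 6.71 normalized CPM per kb, beside 6.77 for *Mtor* and 66.8 for *Akt2*, the strongest of the 9. In vehicle-treated HSALR muscle it reached 42.6 normalized CPM per kb, between *Akt2* at 58.8 and *Akt1* at 18.8. In bulk muscle RNA, more RNA per cell and more cells of a type that expresses the gene cannot be told apart. Of 6 leukocyte markers, 2 (*Cd68* and *Csf1r*) were higher in HSALR than in control muscle after vehicle, and their summed level ranged from 129 to 175 normalized CPM against 109 to 150, with none of the 6 at 0. Of 3 satellite cell markers, 1 (*Pax7*) was higher, with sums of 3.19 to 5.30 against 1.72 to 3.13 normalized CPM. Of 8 muscle fibre markers 2 were higher and 0 lower. The part of these markers in the *Plekho1* level was not tested. Left-out mice and the other processing settings kept the HSALR difference after vehicle between 2.62 and 2.73 on the log2 scale. As the gene was chosen by its levels in these same mice, that range is a description and no test.

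*Telo2* encodes TEL2, which with TTI1 and TTI2 forms the TTT complex that helps to fold and assemble mTOR and related kinases (chromosome 17, 25099569 to 25115974). Vehicle-treated controls had levels of 8.51, 7.38 and 7.43 in S445, S446 and S450. Vehicle-treated HSALR mice had 10.6, 12.0, 10.5, 10.8 and 10.2 in S451, S452, S453, S458 and S459, all slightly above the controls (log2 fold change 0.48 ± 0.12). AICAR-treated controls stood highest of all, with 22.1, 23.4 and 26.8 in S447, S448 and S449, which is 3.10-fold the level of vehicle-treated controls and a log2 fold change of 1.63 ± 0.13. AICAR-treated HSALR mice had 16.2, 12.2, 16.1, 15.8 and 19.6 in S454, S455, S460, S462 and S463, above each vehicle-treated HSALR mouse (0.56 ± 0.10) and below each AICAR-treated control (log2 fold change -0.60 ± 0.11). The 4 groups did not overlap, and their order was vehicle-treated controls, vehicle-treated HSALR mice, AICAR-treated HSALR mice and AICAR-treated controls, so that HSALR stood above control after vehicle and below it after AICAR. The AICAR effect was 1.07 ± 0.16 smaller in HSALR mice on the log2 scale, a difference that was not tested because the gene was chosen for its levels. For its partners the log2 fold change with AICAR in controls was 0.07 ± 0.08 for *Tti1* and -0.05 ± 0.08 for *Tti2*, with adjusted p-values of 0.586 and 0.756 (edgeR quasi-likelihood test). Between genotypes *Tti1* gave overlapping groups, with -0.09 ± 0.07 after vehicle and -0.11 ± 0.07 after AICAR (edgeR adjusted p 0.348 and 0.259). For *Tti2* every HSALR mouse was above every control, by 0.19 ± 0.07 after vehicle and 0.25 ± 0.07 after AICAR (edgeR adjusted p 0.0729 and 0.0267). The latter was thus opposite in sign to *Telo2*. The first passed with library size alone (edgeR adjusted p = 0.0413). The second was lost without S447, S448 or S462, without the libraries that held *Krt14* and in a fit of the 2 groups alone (0.19 to 0.24, edgeR adjusted p 0.0615 to 0.153).

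**Figure D1:**
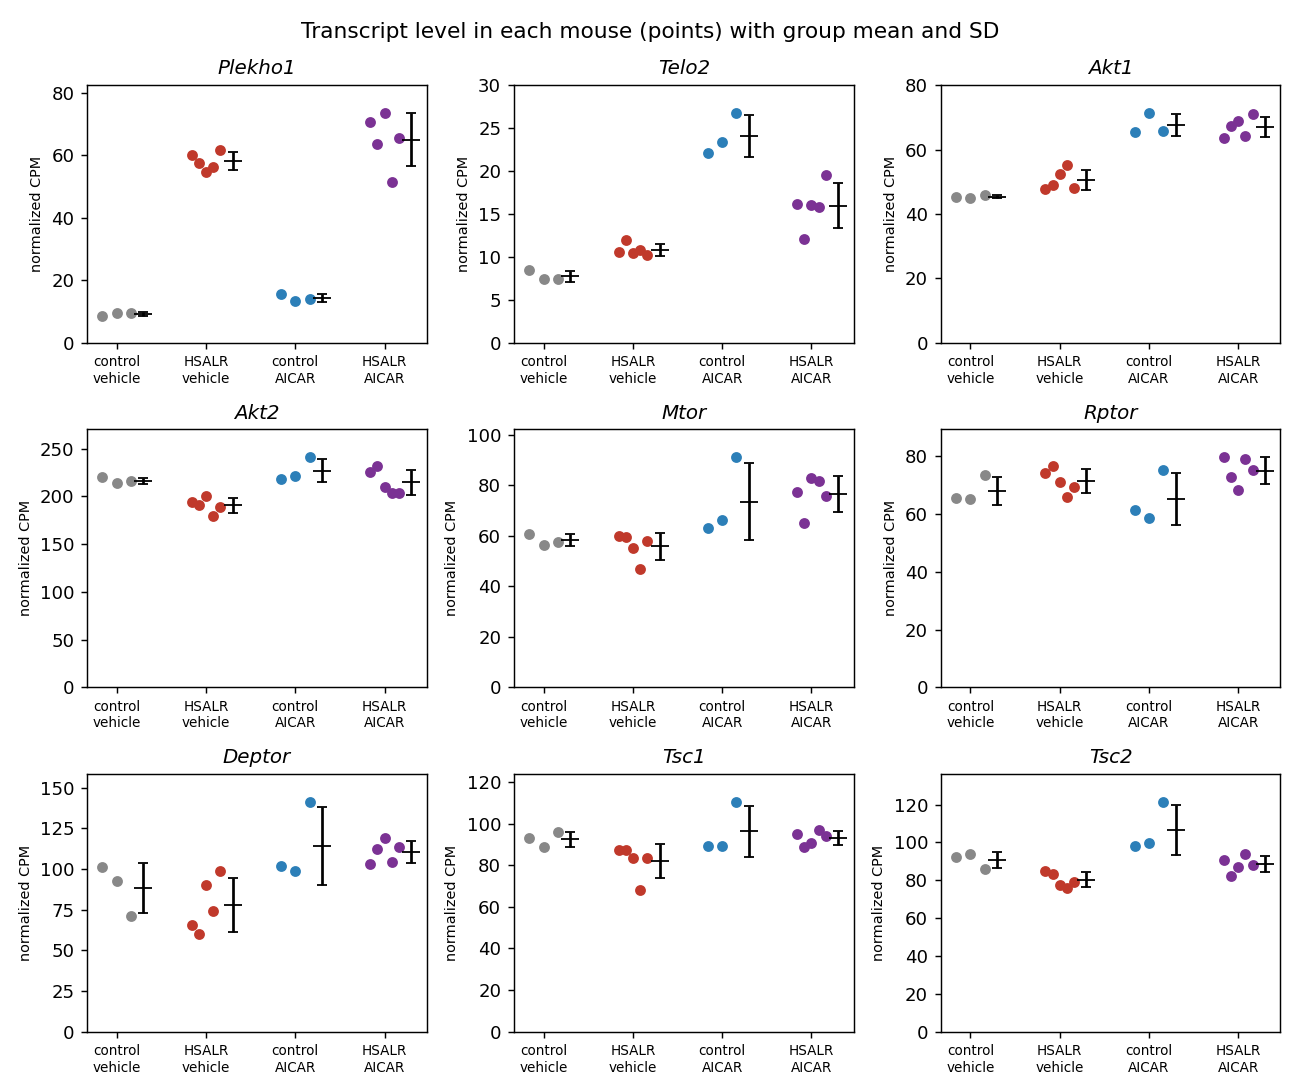
Normalized CPM (y axis, from 0) of the 9 genes in each mouse (points), by genotype and treatment (x axis), with the mean and SD of each group (bars). *Plekho1* lies at 8.51 to 15.6 in all control mice and at 51.3 to 73.6 in all HSALR mice, *Telo2* is highest in AICAR-treated controls, and *Akt1* is higher after AICAR in both genotypes.

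*Akt1* and *Akt2* encode the ubiquitous AKT kinase and the form most tied to insulin-stimulated glucose uptake (chromosome 12, 112653821 to 112674884, and chromosome 7, 27591552 to 27640826). *Akt1* rose with AICAR in both genotypes, by 1.49-fold in controls and 1.33-fold in HSALR mice. Vehicle-treated controls had 45.3, 45.1 and 45.9 normalized CPM in S445, S446 and S450, and AICAR-treated controls had 65.4, 71.6 and 65.8 in S447, S448 and S449. Vehicle-treated HSALR mice had 47.9, 49.1, 52.6, 55.3 and 48.2 in S451, S452, S453, S458 and S459, and AICAR-treated HSALR mice had 63.8, 67.3, 69.0, 64.4 and 71.2 in S454, S455, S460, S462 and S463. All 8 AICAR-treated mice were above all 8 vehicle-treated mice. The log2 fold change was 0.57 ± 0.06 in controls and 0.41 ± 0.05 in HSALR mice, with adjusted p-values of 7.0e-05 and 4.5e-05 in edgeR's quasi-likelihood test over 15487 genes. Both calls held under every alternative and without any single mouse. Between genotypes, *Akt1* differed by 0.16 ± 0.06 after vehicle, with an edgeR adjusted p of 0.0556, and by -0.01 ± 0.06 after AICAR, where the interval of 2 SE ran from -0.12 to 0.10. The difference after vehicle lay close to the threshold and passed by DESeq2 (0.14, DESeq2 adjusted p = 0.0431) and without S451 or S459 (0.16 and 0.17, edgeR adjusted p 0.0484 and 0.0489). It was smaller with the summed epidermal markers as a covariate (0.13, edgeR adjusted p = 0.135). Without the 6 libraries that held *Krt14*, which left 1 vehicle-treated HSALR mouse, it was 0.08.

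*Akt2* was lower in HSALR than in control muscle after vehicle and higher after AICAR than after vehicle in HSALR mice, both by small amounts. Its level was 220, 214 and 216 in vehicle-treated controls S445, S446 and S450 and 194, 191, 200, 179 and 189 in vehicle-treated HSALR mice S451, S452, S453, S458 and S459. The groups did not overlap, and the log2 fold change was -0.18 ± 0.06 (adjusted p = 0.0269, edgeR quasi-likelihood test). AICAR-treated HSALR mice had 226, 232, 210, 204 and 203 in S454, S455, S460, S462 and S463, above every vehicle-treated HSALR mouse (0.17 ± 0.05, edgeR adjusted p = 0.0188). AICAR-treated controls had 218, 222 and 241 in S447, S448 and S449, which overlapped the vehicle-treated controls (0.07 ± 0.06, interval -0.06 to 0.20). The genotype call was lost without S445, S446, S450 or S458 (adjusted p 0.0524 to 0.0963 in edgeR), and the AICAR call without S454 or S455 (0.0537 and 0.0533), while these log2 fold changes moved between -0.20 and -0.16 and between 0.14 and 0.19. With library size alone the AICAR value was 0.09 (edgeR adjusted p = 0.189) and the genotype value -0.17 (0.0516). With the summed epidermal markers as a covariate they were 0.16 and -0.18, and without the 6 libraries that held *Krt14* 0.14 and -0.17, and neither passed (edgeR adjusted p 0.0538 to 0.452).

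Of the mTORC1 genes, *Mtor*, the kinase (chromosome 4, 148448582 to 148557685), rose with AICAR in HSALR mice. Its level was 59.9, 59.4, 55.1, 46.6 and 58.0 in vehicle-treated HSALR mice S451, S452, S453, S458 and S459 and 77.4, 65.0, 82.7, 81.8 and 75.6 in AICAR-treated HSALR mice S454, S455, S460, S462 and S463. The groups did not overlap, and the log2 fold change was 0.45 ± 0.10, a 1.37-fold increase (edgeR adjusted p = 0.00348). In controls the level was 60.8, 56.2 and 57.5 after vehicle (S445, S446, S450) and 63.3, 66.2 and 91.2 after AICAR (S447, S448, S449). The AICAR-treated controls were again all higher, but S449 stood far above the other two and the log2 fold change of 0.34 ± 0.13 did not pass (edgeR adjusted p = 0.0914). Without S447 it passed at 0.44 (edgeR adjusted p = 0.0482), and without S449 it was 0.15. HSALR and control muscle did not differ detectably, with -0.06 ± 0.11 after vehicle and 0.06 ± 0.11 after AICAR, and intervals from -0.29 to 0.17 and from -0.17 to 0.28.

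*Deptor*, which encodes an inhibitory partner of mTOR (chromosome 15, 55112317 to 55259273), rose alongside *Mtor* with AICAR in HSALR mice. Vehicle-treated HSALR mice spread widely, with 65.5, 60.2, 90.2, 74.3 and 99.1 in S451, S452, S453, S458 and S459. AICAR-treated HSALR mice lay close together at 103, 112, 119, 104 and 114 in S454, S455, S460, S462 and S463, all above the vehicle-treated ones, with a log2 fold change of 0.51 ± 0.14 (edgeR adjusted p = 0.0143). Vehicle-treated controls had 101, 92.8 and 71.3 in S445, S446 and S450, and AICAR-treated controls had 102, 98.9 and 142 in S447, S448 and S449. These groups overlapped and the log2 fold change of 0.37 ± 0.18 did not pass (edgeR adjusted p = 0.190). The calls of *Mtor* and *Deptor* in HSALR mice held without any single mouse. When the summed epidermal markers entered the fit as a covariate, the log2 fold changes were 0.36 for *Mtor* and 0.42 for *Deptor* and neither passed (edgeR adjusted p 0.0761 and 0.170). Without the 6 libraries that held *Krt14*, which left 1 vehicle-treated HSALR mouse, the log2 fold change of *Mtor* was 0.35 (edgeR adjusted p = 0.293) and that of *Deptor* 0.75 (edgeR adjusted p = 0.0281). All 8 epidermal markers were lower after AICAR in HSALR mice, with sums of 0.612 to 187 normalized CPM after vehicle and 0.242 to 0.371 after AICAR.

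*Rptor* encodes raptor, the scaffold that defines mTORC1 and presents its substrates (chromosome 11, 119602905 to 119899591), and it passed the test in no comparison with all mice and TMM scaling. Its level was 65.5, 65.2 and 73.7 in vehicle-treated controls S445, S446 and S450, and 74.3, 76.7, 71, 65.7 and 69.5 in vehicle-treated HSALR mice S451, S452, S453, S458 and S459. It was 61.4, 58.6 and 75.3 in AICAR-treated controls S447, S448 and S449, and 79.7, 72.7, 68.3, 78.9 and 75.1 in AICAR-treated HSALR mice S454, S455, S460, S462 and S463. All 4 groups overlapped their neighbours. The log2 fold change was 0.07 ± 0.07 with AICAR in HSALR mice (interval -0.07 to 0.21) and -0.06 ± 0.09 in controls (interval -0.25 to 0.12). The largest of the 4, HSALR against control after AICAR, was 0.20 ± 0.08 (edgeR adjusted p = 0.0887), and it reached 0.32 and passed without S449 (edgeR adjusted p = 0.0119). With all mice it was 0.22 with upper-quartile scaling and passed as well (edgeR adjusted p = 0.0491). With the summed epidermal markers as a covariate it was 0.19 and did not pass (edgeR adjusted p = 0.138). Without the 6 libraries that held *Krt14* it was 0.13.

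*Tsc1* and *Tsc2* encode hamartin and tuberin, the brake on RHEB (chromosome 2, 28640993 to 28691172, and chromosome 17, 24595816 to 24632676). *Tsc1* was 92.9, 88.7 and 95.8 in vehicle-treated controls S445, S446 and S450 and 87.5, 87.5, 83.6, 68.2 and 83.6 in vehicle-treated HSALR mice S451, S452, S453, S458 and S459. The HSALR mice were all below the controls, S458 by far the lowest, but the log2 fold change of -0.17 ± 0.08 did not pass (edgeR adjusted p = 0.144). Without the 6 libraries that held *Krt14*, which left 1 vehicle-treated HSALR mouse, it was -0.06. After AICAR the level was 89.2, 89.0 and 111 in controls S447, S448 and S449 and 95.0, 88.5, 90.5, 96.7 and 94.0 in HSALR mice S454, S455, S460, S462 and S463. AICAR-treated HSALR mice were all above vehicle-treated ones (0.18 ± 0.07, edgeR adjusted p = 0.0801), and the other comparisons of *Tsc1* gave overlapping groups.

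*Tsc2* was lower in HSALR than in control muscle after AICAR. Its level was 97.9, 99.7 and 122 in AICAR-treated controls S447, S448 and S449 and 90.9, 82.5, 87.0, 93.9 and 88.3 in AICAR-treated HSALR mice S454, S455, S460, S462 and S463. The groups did not overlap, and the log2 fold change was -0.27 ± 0.07 (edgeR adjusted p = 0.0141). S449 carried much of it: without that mouse the log2 fold change was -0.16 and the call was lost (edgeR adjusted p = 0.0920). After vehicle the level was 92.2, 93.9 and 85.9 in controls S445, S446 and S450 and 85.1, 83.5, 77.5, 75.8 and 78.9 in HSALR mice S451, S452, S453, S458 and S459. Again the HSALR mice were all lower, by a log2 fold change of -0.18 ± 0.07 that did not pass (edgeR adjusted p = 0.0742), though it did with upper-quartile scaling (-0.19, edgeR adjusted p = 0.0396) and with library size alone (-0.16, edgeR adjusted p = 0.0487). With AICAR it was 0.23 ± 0.08 in controls and 0.14 ± 0.06 in HSALR mice (edgeR adjusted p 0.0656 and 0.0979). The value in controls passed by DESeq2 (0.24, DESeq2 adjusted p = 0.0375) and without S447 (0.29, edgeR adjusted p = 0.0424). The value in HSALR mice was 0.049 with the summed epidermal markers as a covariate (edgeR adjusted p = 0.715). Without the libraries that held *Krt14*, which left 1 vehicle-treated HSALR mouse, it was 0.053. *Tsc2* overlaps *Pkd1* in the annotation, so reads of the shared stretch are uncertain. The spans of *Akt1*, *Mtor*, *Rptor* and *Deptor* overlap other annotated genes as well, among them *Angptl7* within that of *Mtor* and *Rptoros* within that of *Rptor*, with the same limit. S449 was the highest of the AICAR-treated controls for *Akt2*, *Mtor*, *Rptor*, *Tsc1*, *Tsc2*, *Deptor* and *Telo2*.

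**Figure D2:**
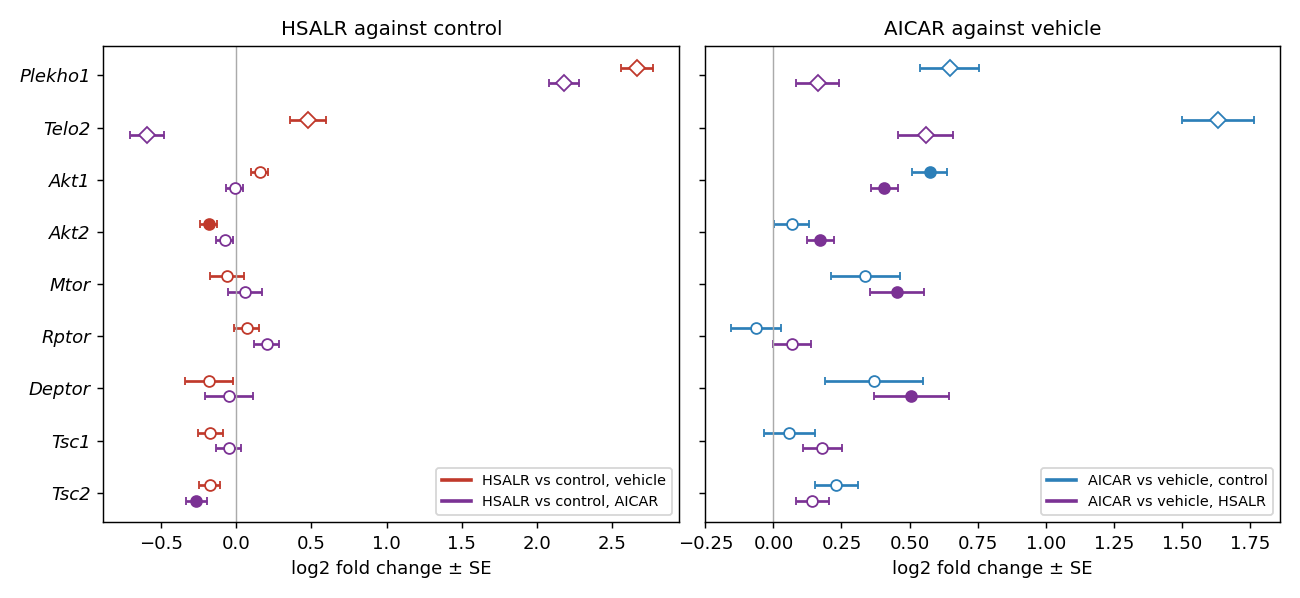
Log2 fold change with its SE (x axis) of the 9 genes for HSALR against control (left) and AICAR against vehicle (right), on different scales. Filled circles have an adjusted p under 0.05, open circles do not, and diamonds (*Plekho1*, *Telo2*) were not tested. *Plekho1* at 2.67 and 2.18 stands far from the tested genes on the left, and *Akt1* is filled in both genotypes on the right.

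Of the 7 tested genes, 1 (*Akt2*) was called between HSALR and control muscle after vehicle, where 26.9% of all genes were called, 15.4% higher and 11.5% lower. With AICAR in HSALR mice 4 of 7 were called (*Akt1*, *Akt2*, *Mtor* and *Deptor*, all higher), beside 26.6% of all genes in either direction and 13.7% called higher. With AICAR in controls 1 of 7 was called (*Akt1*, higher), beside 13.2% of all genes, 8.4% higher and 4.77% lower. Between genotypes after AICAR 1 of 7 was called (*Tsc2*, lower), beside 21.8%, 12.2% higher and 9.64% lower. The groups of mice did not overlap for 4 of 7 between genotypes after vehicle (29.7% of all genes), 5 of 7 with AICAR in HSALR mice, all higher (10.2% of all genes higher and 7.48% lower), 3 of 7 with AICAR in controls (33.1%), and 1 of 7 between genotypes after AICAR (26.5%). The AICAR effect differed between genotypes for 0 of 7 by edgeR, with 0 at an unadjusted p under 0.05 and 0 by DESeq2. Over all genes edgeR called 0.691%, with 15.0% at an unadjusted p under 0.05, and DESeq2 called 535 genes. The differences of the AICAR effects, HSALR minus control, ran from -0.17 ± 0.08 for *Akt1* to 0.14 ± 0.23 for *Deptor* on the log2 scale. So the *Mtor* and *Deptor* calls in HSALR mice alone do not show an effect particular to that genotype, with differences of 0.12 (interval -0.20 to 0.44) and 0.14 (interval -0.31 to 0.59). Comparisons that share a group of mice are not independent of each other.

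The balance between partners was examined within each library as a share of length-scaled counts, which does not depend on library scaling. Raptor defines mTORC1 and rictor defines mTORC2, the complex that phosphorylates AKT. *Rptor* made up 74.7%, 74.6% and 74.0% of *Rptor* plus *Rictor* in vehicle-treated controls and 80.9%, 83.7%, 82.5%, 86.4% and 82.7% in vehicle-treated HSALR mice. After AICAR it was 72.2%, 72.4% and 73.1% in controls and 82.5%, 81.2%, 78.4%, 83.3% and 82.7% in HSALR mice. Every HSALR mouse was above every control, by 8.81 percentage points after vehicle and 9.02 after AICAR. Each comparison had the smallest two-sided p that an exact permutation test of 5 against 3 mice allows, 0.0179, which became 0.0536 after Benjamini-Hochberg adjustment over the 12 comparisons computed and did not pass. Of these 12, 8 are described here, and the adjusted values depend on the other 4 as well. Of the pair *Rictor* passed the test between genotypes. It was 29.3, 29.4 and 34.4 normalized CPM in vehicle-treated controls and 23.3, 19.8, 20, 13.7 and 19.2 in vehicle-treated HSALR mice, with no overlap. *Rictor* fell by 0.69 ± 0.13 on the log2 scale after vehicle, and its log2 fold change was -0.54 ± 0.13 after AICAR (edgeR adjusted p 0.000816 and 0.00640). Without the libraries that held *Krt14* the former was -0.34 and was not called (edgeR adjusted p = 0.177).

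*Tsc1* made up 43.0% ± 0.27 (SD, n = 3) of *Tsc1* plus *Tsc2* in AICAR-treated controls and 46.7% ± 0.41 (n = 5) in AICAR-treated HSALR mice, groups that did not overlap and differed by 3.69 percentage points (exact permutation p = 0.0179, adjusted 0.0536). After vehicle the shares were 45.9% ± 2.08 in controls and 45.9% ± 1.80 in HSALR mice, within the spread between mice. With 3 against 3 controls the exact test cannot go below 0.1, the value it gave for both shares with AICAR. No share described here passed after adjustment.

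**Figure D3:**
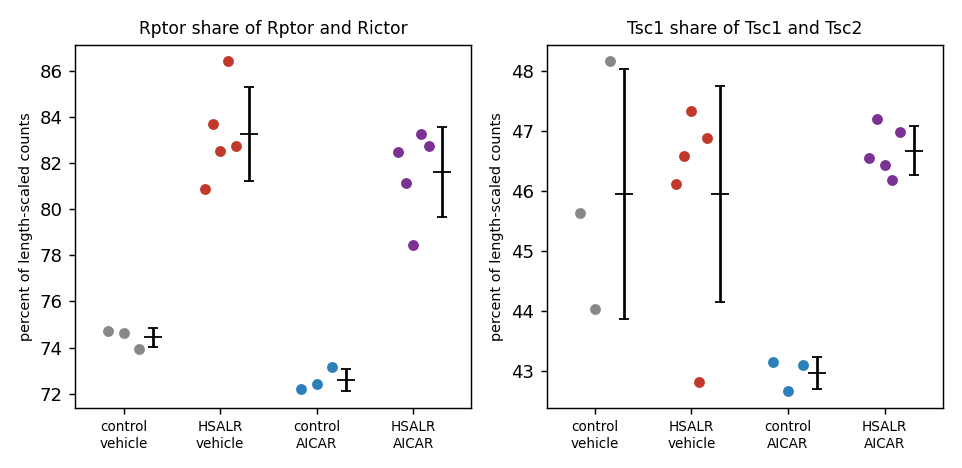
Share (percent of length-scaled counts, y axes that do not start at 0) of *Rptor* beside *Rictor* and of *Tsc1* beside *Tsc2* in each mouse (points), by group (x axis), with mean and SD (bars). The *Rptor* share lies at 72.2% to 74.7% in all controls and at 78.4% to 86.4% in all HSALR mice.

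The wider pathway was read from 12 lists by role that held 89 tested genes, the 7 above included. In vehicle-treated mice 28 of the 89 differed between HSALR and control muscle, 14 higher and 14 lower (31.5%, beside 26.9% of all genes), and their median log2 fold change of -0.03 was close to the 0.01 of all genes. The largest group was that of AKT and mTORC1 substrates, of which 4 of 13 were higher and 4 lower. *Tbc1d1* and *Tbc1d4*, the paired AKT substrates that hold back GLUT4 vesicles, went opposite ways. *Tbc1d1* was 114, 145 and 77.9 in vehicle-treated controls and 227, 279, 186, 194 and 181 in vehicle-treated HSALR mice (log2 fold change 0.93 ± 0.25, edgeR adjusted p = 0.0136, and 0.72 with an adjusted p of 0.0728 without S450). *Tbc1d4* was 81.6, 76.5 and 89.0 against 60.3, 40.3, 45.6, 39.2 and 44.2 (-0.84 ± 0.21, edgeR adjusted p = 0.00813). The groups did not overlap for either gene. *Grb10*, an adaptor that dampens insulin receptor signalling and is stabilized by mTORC1, was 84.0, 78.0 and 114 against 46.4, 42.0, 40.6, 36.8 and 32.0 (-1.22 ± 0.17, edgeR adjusted p = 8.1e-05), again with no overlap.

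Stress inhibitors of mTORC1 also split between HSALR and control muscle after vehicle, with 1 of 5 higher and 2 lower. *Ddit4l* (REDD2) was higher, at 573, 621, 643, 589 and 536 in HSALR mice against 320, 346 and 391 in controls (0.75 ± 0.17, edgeR adjusted p = 0.00392). *Ddit4* (REDD1) had the largest fall, -1.90 ± 0.59 (edgeR adjusted p = 0.0268), but its control mice spread from 7.56 to 67.3, overlapped the HSALR mice, and without S450 the log2 fold change was -0.70 (edgeR adjusted p = 0.406). That call was lost without S451, S452 or S453 as well, and in a fit of the 2 groups alone (-1.90, edgeR adjusted p = 0.0532). Among 9 inputs to AKT, *Pik3cb*, a catalytic subunit of phosphoinositide 3-kinase, was 1.53-fold higher with no overlap (0.61 ± 0.10, edgeR adjusted p = 0.000379). *Irs2*, an insulin receptor substrate, was lower (-1.17 ± 0.40, edgeR adjusted p = 0.0405) in overlapping groups, and it was no longer called without S446, S450, S451, S452, S453 or S459. Without S446 its log2 fold change was -0.83 (edgeR adjusted p = 0.204), and with the epidermal covariate it was -1.10 and not called (edgeR adjusted p = 0.0742). Of the 13 RAG and lysosomal genes, which bring mTORC1 to the lysosome when amino acids are plentiful, 4 were higher and 0 lower, led by *Rragd* at 0.46 ± 0.08 (edgeR adjusted p = 0.000485). These list counts stand beside 15.4% of all genes called higher and 11.5% called lower, and no list was tested against other genes. In the TSC and RHEB list 0 of 4 passed by edgeR, and of 9 subunits of mTORC1 and mTORC2 *Rictor* alone did. Without the 6 libraries that held *Krt14*, which left 1 vehicle-treated HSALR mouse, the 28 calls became 1, and the log2 fold change was -0.40 for *Tbc1d4*, -1.19 for *Ddit4*, -0.81 for *Grb10*, 0.78 for *Ddit4l*, 0.72 for *Pik3cb*, 0.33 for *Rragd*, 0.81 for *Tbc1d1* and -1.25 for *Irs2*.

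With AICAR in HSALR mice 24 of the 89 were called, 17 higher and 7 lower (27.0%, beside 26.6% of all genes). Cell type markers moved in the same comparison. Of 5 fibroblast markers 3 were lower, with sums of 1236 to 1657 normalized CPM after vehicle and 959 to 1285 after AICAR, and of 5 endothelial markers 2 were higher (183 to 232 and 226 to 241). Of the leukocyte, satellite cell and muscle fibre markers 1 each was lower. Their part in the pathway counts was not tested. Of the 13 RAG and lysosomal genes 6 were higher and 0 lower, beside 13.7% of all genes called higher and 13% called lower. *Rragb* was 4.05, 4.25, 3.45, 3.11 and 4.16 after vehicle and 6.38, 5.40, 6.93, 9.19 and 13.0 after AICAR in HSALR mice (1.10 ± 0.21, edgeR adjusted p = 0.00139), without overlap. *Lpin1*, a phosphatidate phosphatase that mTORC1 keeps out of the nucleus, was 225, 321, 245, 200 and 185 after vehicle and 692, 650, 518, 599 and 667 after AICAR, 2.66-fold higher (1.41 ± 0.17, edgeR adjusted p = 5.2e-05). *Pik3ip1*, an inhibitor of phosphoinositide 3-kinase, was 2.25-fold higher (1.17 ± 0.19, edgeR adjusted p = 0.000554). *Tfeb*, the transcription factor of lysosomal genes that mTORC1 holds in the cytoplasm, was lower in every AICAR-treated HSALR mouse, 70.5 to 85.0 against 106 to 137 (-0.71 ± 0.08, edgeR adjusted p = 2.0e-05). Among the other lower genes were *Irs1* (-0.69 ± 0.24), *Sesn3* (-0.45 ± 0.15) and *Itfg2* of KICSTOR (-0.38 ± 0.11), whose groups overlapped. *Irs1* kept its call only without S459 or S462 among the 10 mice left out in turn, and *Sesn3* only without S452, S458 or S460, its value moving to -0.28 without S451. The *Tbc1d1* level, already high in vehicle-treated HSALR mice, was higher again after AICAR (1.09 ± 0.22, edgeR adjusted p = 0.00188). The 24 calls became 12 with the epidermal covariate and 8 without the libraries that held *Krt14*, and 15 without S454. The covariate ended the calls of *Tbc1d1* (0.85), *Sesn3* (-0.57) and *Itfg2* (-0.41), with edgeR adjusted p of 0.0535, 0.0535 and 0.0916. Without the libraries that held *Krt14*, *Rragb* (1.01), *Tbc1d1* (1.00), *Irs1* (-1.04) and *Itfg2* (-0.06) were not called (edgeR adjusted p 0.109 to 0.883), whereas *Sesn3* was at -0.96 and called (edgeR adjusted p = 0.00165). *Sesn3* was also not called in a fit of the 2 groups alone (edgeR adjusted p = 0.0661).

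With AICAR in controls 12 of the 89 were called, 7 higher and 5 lower (13.5%, beside 13.2% of all genes). Of 3 satellite cell markers 1 was lower in this comparison, with sums of 1.72 to 3.13 normalized CPM after vehicle and 1.19 to 1.61 after AICAR, and its part in the calls was not tested. Folliculin and its partner, which act on RAGC and RAGD at the lysosome, were among them: *Flcn* was 62.3, 70.9 and 71.5 after vehicle and 118, 149 and 165 after AICAR (1.08 ± 0.19, edgeR adjusted p = 0.00199), and *Fnip2* was 10.5, 7.36 and 8.55 against 14.4, 29.9 and 27.6 (1.45 ± 0.28, edgeR adjusted p = 0.00344). Neither overlapped. *Fnip2* was higher after AICAR in HSALR mice too (6.85 to 10.9 after vehicle, 12.1 to 23.1 after AICAR), again without overlap. Naming was limited to 4 higher genes per comparison, so a gene named here alone need not have risen in controls alone. In controls *Tbc1d1* (1.31 ± 0.28) and *Lpin1* (1.17 ± 0.22) were also higher. *Tfeb* (-0.52 ± 0.10) and *Ddit4l* (-1.01 ± 0.18) were lower, and none of these genes had overlapping groups in controls. *Sesn2* (-0.80 ± 0.24) and *Pik3ca* (-0.42 ± 0.13) were lower as well, but *Sesn2* lost its call without any one of 5 of the 6 mice (-0.53 without S446) and in a fit of the 2 groups alone (edgeR adjusted p = 0.0733), and *Pik3ca* without any of the 6. Without the libraries that held *Krt14* the 12 calls became 5, while the log2 fold changes of named genes that lost their call were 1.08 for *Flcn*, 1.23 for *Fnip2*, 1.13 for *Tbc1d1*, -0.99 for *Ddit4l* and -1.05 for *Sesn2* (edgeR adjusted p 0.0577 to 0.0956).

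Between HSALR and control muscle after AICAR 18 of the 89 were called, 9 higher and 9 lower (20.2%, beside 21.8% of all genes). Cell type markers differed here too. Of 5 endothelial markers 3 were lower in HSALR mice (sums of 226 to 241 normalized CPM against 289 to 304), and of 3 satellite cell markers 2 were higher (2.62 to 3.05 against 1.19 to 1.61). Of 8 epidermal markers 5 were lower, with sums of 0.242 to 0.371 against 0.243 to 104. Of 4 Schwann cell markers 1 was lower, and of 8 muscle fibre markers 2 were higher and 1 lower. Their part in these calls and in that of *Tsc2* was not tested. Without the libraries that held *Krt14* the log2 fold change of *Tsc2* was -0.31 (edgeR adjusted p = 0.0374). *Ddit4l* showed the widest gap, at 440, 644, 331, 627 and 580 in HSALR mice against 168, 188 and 170 in controls (1.58 ± 0.17, edgeR adjusted p = 2.1e-05). *Tbc1d4* (-1.16 ± 0.21) and *Grb10* (-1.10 ± 0.17) were lower, and *Pik3cb* (0.54 ± 0.10), *Rragd* (0.34 ± 0.08) and *Rps6kb2*, which encodes the S6 kinase S6K2 (0.42 ± 0.08), higher, all without overlap. *Prkdc*, the DNA-dependent protein kinase that also needs the TTT complex, was lower (-0.42 ± 0.13), and the value was -0.27 and no longer called without S449 (edgeR adjusted p = 0.204). Its call was lost too without S447, S454, S455 or S463. For the difference between the AICAR effects edgeR called 0 of the 89, beside 0.691% of all genes. At an unadjusted p under 0.05 in edgeR there were 6 of the 89, beside 15.0% of all genes. DESeq2 called 1 of the 89, where it called 535 over all genes. That gene was *Ddit4l*, named here for this call, with a difference of 0.83 ± 0.23 (edgeR adjusted p = 0.116, DESeq2 adjusted p = 0.0210), and without S460 it passed in edgeR at 0.96 (adjusted p = 0.00724).

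**Figure D4:**
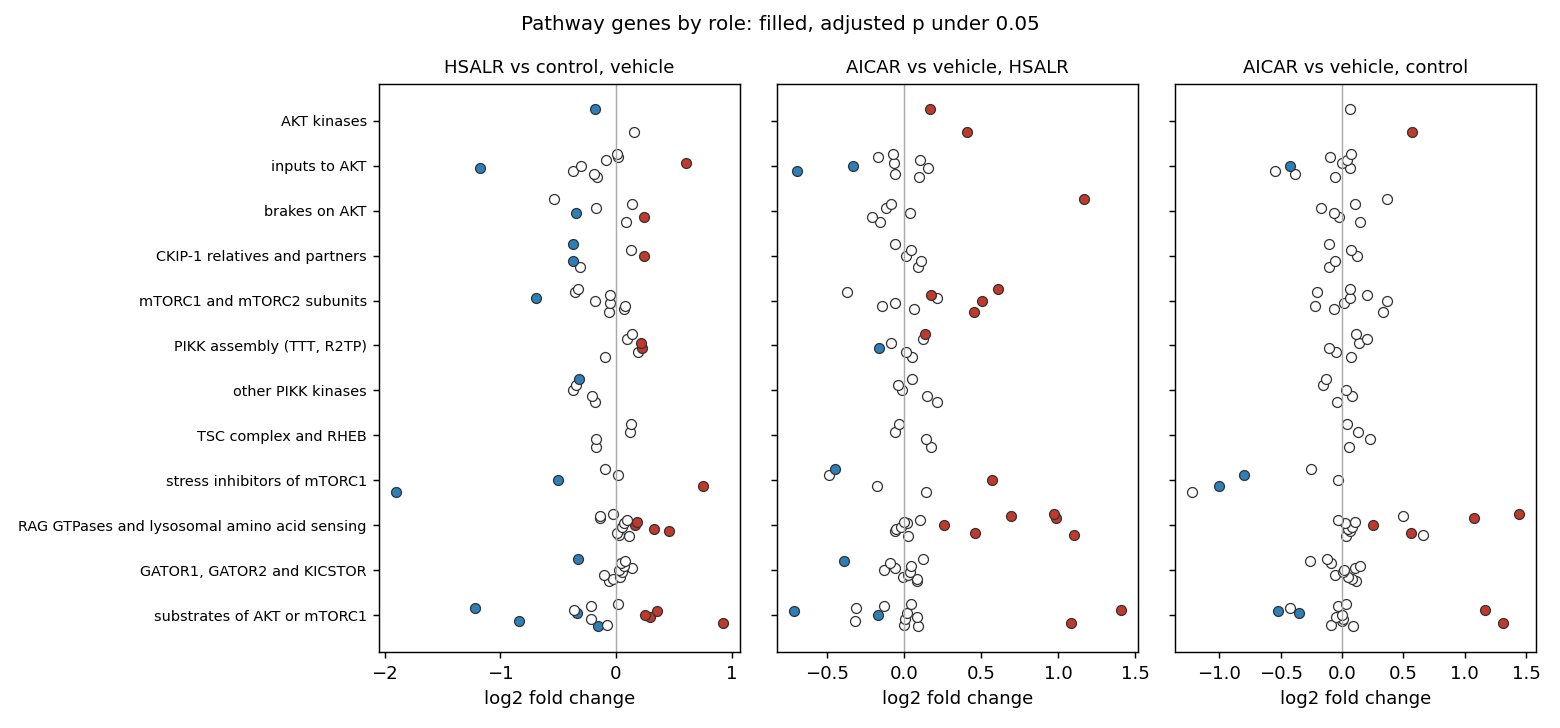
Log2 fold change (x axes, different scales) of tested pathway genes by role (rows) in 3 comparisons. Filled points have an adjusted p under 0.05, red higher and blue lower, and open points do not. Of 13 RAG and lysosomal genes 4, 6 and 4 are filled, all red, beside 15.4%, 13.7% and 8.4% of all genes called higher. The TSC and RHEB row has 0 of 4 filled in the 3 comparisons shown.

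Genes whose levels ran most like those of *Plekho1* and *Telo2* over the 16 mice were ranked by the root mean square difference of centred log2 CPM among 13001 genes. For *Plekho1*, whose own root mean square was 1.20, the nearest were *Osbpl10* (0.35), *A930003A15Rik* (0.36), *Slc1a1* (0.39), *Galnt7* (0.40) and *2310039L15Rik* (0.40). *Galnt7*, a glycosyltransferase gene, was the most abundant of them, at 6.32 ± 0.55 (SD, n = 3) and 6.45 ± 0.37 normalized CPM in vehicle- and AICAR-treated controls and 26.4 ± 4.16 and 21.7 ± 3.95 (n = 5) in the HSALR groups. For *Telo2*, with a root mean square of 0.56, the nearest were *Jag2* (0.20), *Faap100* (0.25), *Ache* (0.25), *Zfp248* (0.26) and *Gfra4* (0.26). *Jag2*, a Notch ligand gene, was 35.9 ± 2.17 in vehicle-treated controls, 41.6 ± 2.48 in vehicle-treated HSALR mice, 79.3 ± 14.3 in AICAR-treated controls and 56.4 ± 6.53 in AICAR-treated HSALR mice, the same order as *Telo2*. The mice share library depth and scaling across genes, and these distances carry no test.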

How the data were processed

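The authors mapped single-end reads of stranded polyadenylated RNA libraries to mm10 with STAR 2.5.2a and counted, with QuasR, reads starting in any exon of RefSeq genes. Multiply mapping reads were given 1 location, and use of the strand is not given in the sources used here. The deposited values are raw counts per gene and mouse, with a gene length. Names and positions came from RefSeq GRCm38.p6, which matched 24374 identifiers and left 80 unmatched.

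Counts were scaled by TMM (factors 0.906 to 1.06) and filtered by filterByExpr in edgeR 4.0.16 (R 4.3.3). glmQLFit and glmQLFTest were run on all 16 libraries with 1 mean per group, and p-values were adjusted over 15487 genes with a threshold of 0.05. Fold changes are those of the fit and intervals are 2 SE to each side. Labels of the untreated arm were read as vehicle. Mice share no number across groups.

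The 9 genes and the lists were chosen with earlier results of these data known. Besides the 9 and the list counts, up to 4 higher and 4 lower pathway genes per comparison were named, by log2 fold change at an adjusted p under 0.05 and a mean count of at least 50. *Rictor* was named as the partner of *Rptor*, *Tti1* and *Tti2* as partners of *Telo2*. DESeq2 1.42.0, RLE, upper-quartile and library-size scaling, no filter, fits of the groups compared, an epidermal covariate, omission of the libraries above 1 normalized CPM of *Krt14*, and leaving out each mouse were the alternatives. Scaling to *Tbp* was not used: its own log2 fold change between genotypes after vehicle was -0.27 ± 0.09 (edgeR adjusted p = 0.0412). An item among the computed results is not reported here. Counts of the 9 genes ran from 547 to 18728 per library.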

Additional observations from a re-analysis of the deposited data

Results flagged for a closer look

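*Telo2* was higher in HSALR than in control mice after vehicle (log2 fold change 0.48) and lower after AICAR (-0.60), with every mouse on the same side in each case. The difference was not tested because the gene was chosen for its levels in these same mice, so the flag is no independent result.

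In groups of 5 mice, 5 values stood apart from the other 4 by Dixon's criterion among 66 groups examined, where chance gives 3.3. Of these, 3 came from the AICAR-treated HSALR mouse S460, which had *Irs2* at 37.0 normalized CPM (14.7 to 17.9 in the others), *Sesn3* at 7.84 (7.14 to 7.30) and *Tfeb* at 85.0 (70.5 to 74.3). The others came from the vehicle-treated HSALR mouse S458, with *Tsc1* at 68.2 normalized CPM (83.6 to 87.5) and the *Tsc1* share of *Tsc1* plus *Tsc2* at 42.8% (46.1% to 47.3%).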

How the results depend on the processing

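Of 1443 recomputed fold changes and shares, 1317 kept their direction and side of the threshold. Omitting the 6 libraries with *Krt14* left 1 vehicle-treated HSALR mouse, whose spread was assumed to be that of the other groups. Counts of pathway genes then went from 28 to 1 (HSALR against control, vehicle), from 24 to 8 (AICAR, HSALR) and from 12 to 5 (AICAR, control), and the epidermal covariate took the 24 to 12. DESeq2 took the count for the difference of AICAR effects from 0 to 1. Without single mice the counts were 17 to 27 and 15 to 26 in the first 2 comparisons, 11 to 20 for HSALR against control after AICAR, and 0 to 1 for the difference. The lowest values came without S450 (17), S454 (15) and S454 (11), and the 1 without S460. Over all genes the counts went from 4169 to 904, 4121 to 899, 2039 to 697 and 107 to 0 in the smaller *Krt14* set, from 2039 to 1164 in the fit of the groups compared, and from 107 to 535 by DESeq2 and 57 with the covariate. The covariate took 4121 to 2108. Without single mice the count for the difference ranged from 15 (without S448) to 371 (without S460), beside the 107, and moved by over 1.5 times for 12 of the 16 mice. For AICAR in controls it ranged from 1143 (without S449) to 1726, with 1214 without S445 and 1344 without S448. For HSALR against control after AICAR it went from 3379 to as few as 2214 (without S447).

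Changes of sign befell values close to 0 and none that was called. In the smaller *Krt14* set log2 fold changes became 0.028 for *Mtor* (vehicle), 0.056 for *Rptor* (AICAR, control), 0.034 for *Akt1* and -0.012 for *Mtor* (HSALR against control, AICAR), and -0.040, -0.047 and -0.044 for *Mtor*, *Rptor* and *Tsc1* (difference). *Akt1* after AICAR became 0.0030 with upper-quartile scaling and 0.017 with the covariate, and *Rptor* (AICAR, HSALR) -0.0099 with library size alone. Without single mice, *Tsc1* and *Tti2* (AICAR, control) ran from -0.052 to 0.11 and from -0.12 to 0.011, and HSALR against control after AICAR from -0.034 to 0.033 for *Akt1*, -0.040 to 0.24 for *Mtor*, -0.10 to 0.060 for *Tsc1* and -0.14 to 0.14 for *Deptor*. The *Tsc2* difference ran from -0.14 to 0.019. The *Tsc1* share ran from -0.95 to 1.11 percentage points (vehicle) and from -0.059 to 1.07 (AICAR, HSALR). Apart from the smaller sets, the cause was not tested. No scaling moved the median of all genes by more than 0.078. No paired analysis was possible because mice of different groups share no number.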
